A study of Glycine max with 12 samples.

Results

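Ferritin genes were followed across the leaves of saline-alkali stressed soybean after foliar sprays of silica nanoparticles, melatonin or both. The 8 genes described here are 8 of the 46446 genes in the deposited expression table. They carry a ferritin description in that table, 2 as ferritin-1 (Glyma.07G155200 and Glyma.18G205800), 2 as ferritin-2 (Glyma.01G124500 and Glyma.03G050100), 2 as ferritin-3 (Glyma.11G232600 and Glyma.11G232634), 1 as ferritin-4 (Glyma.14G056800) and 1 simply as ferritin (Glyma.02G262500). Each gene identifier is from the Wm82.a4.v1 soybean annotation and holds the chromosome number, so the 8 genes lie on chromosomes 1, 2, 3, 7, 11, 14 and 18, with both ferritin-3 genes on chromosome 11. The study measured mRNA from wild-type leaves of the cultivar HN95, with 3 libraries in each of 4 groups. Every plant, the controls included, stood in a peat and vermiculite soil that received 3 L of a mixed salt solution, in which NaCl and Na2CO3 were at 40 mM each while NaHCO3 and Na2SO4 were at 320 mM each. The control group was stressed without a spray agent named in its labels, the nano-SiO2 group received 200 mg/L silica nanoparticles, the MT group 300 µM melatonin and the nano-SiO2+MT group both at those concentrations. Leaves were taken 7 days after spraying. None of the 4 groups is described as unstressed, so every comparison here is between stressed plants.

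Ferritin is an iron storage protein of plant cells. Its subunits assemble into a hollow shell that oxidises ferrous iron and holds it as a mineral core, and in plants the protein is made with a targeting sequence and works mostly in plastids. In soybean and Arabidopsis, ferritin transcripts are known to accumulate when iron is in excess and to be low when iron is scarce, and ferritin limits the iron that could react with hydrogen peroxide. Melatonin is an indole compound that plants make from tryptophan, and silica nanoparticles serve as a carrier and as a source of silicon.

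The genes were chosen because they name ferritin, and the split into responsive copies and an abundant copy that differed less was selected on their levels in the sprayed groups against control. Values against control are therefore given as a description with no test. Differences between the sprayed groups compare no control library and are tested, although the sprayed libraries in them also took part in the earlier choice. Their standard errors, intervals and limma p-values draw on a variance shared by all 12 libraries, so the control libraries enter these. All levels are FPKM, fragment numbers scaled for transcript length and for the size of the library, so levels of different genes can be set side by side. All 8 genes reached 1 FPKM in at least 3 libraries and were tested. A gene described as ferritin-3, Glyma.14G197500, was listed at 0 in 10 of the 12 libraries, never exceeded 0.0785 FPKM and was not tested.

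The 12 libraries had summed FPKM of 522120 to 559092 and 25557 to 27660 genes at 1 FPKM or more. Their 20 highest genes took 9.77% (nano-SiO2 library 2) to 18.3% (control library 1) of the sum, so these 2 libraries stood farthest apart. Absolute read depth is unknown. Ratios between the lowest values gave a depth of 0.892 to 1.332 relative to control library 1. Each is the commonest ratio, held by only 0.949% to 1.5% of the genes compared, so these depths are rough. The labels call the 3 libraries of a group biological replicates without naming plants, pots or pools, so p-values measure the spread between these libraries. All 12 share 1 batch label, so the labels allow no check for batch differences between the groups.

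The largest single ferritin transcript in leaves was ferritin-3 Glyma.11G232600, with group means from 192 to 239 FPKM. It stood at 260, 227 and 230 FPKM in the control libraries and at 234, 247 and 197 FPKM after nano-SiO2. It stood at 195, 181 and 199 FPKM after MT and at 247, 210 and 226 FPKM after nano-SiO2+MT. Every pair of groups that are neighbours in the order of the means overlapped, while every MT library lay below every control library and every nano-SiO2+MT library. In whole leaves, fewer cells of a type and less mRNA per cell cannot be told apart. As group means, MT leaves held 80.2% of the control level, nano-SiO2 leaves 94.6% and nano-SiO2+MT leaves 95.4%.

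The 4 ferritin-1 and ferritin-2 genes had far larger differences between groups than that copy, and the same order of groups in each gene. Ferritin-2 Glyma.01G124500, the highest of the 4 in control leaves, stood at 108, 87.7 and 96.2 FPKM in the control libraries and at 16.1, 14.6 and 20.0 FPKM after nano-SiO2. It stood at 8.24, 11.6 and 9.74 FPKM after MT and at 44.3, 48.5 and 43.8 FPKM after nano-SiO2+MT. The 4 groups did not overlap: control was highest, the combined spray was in the middle, and both single sprays were low, with MT lowest. Its group means after nano-SiO2, MT and nano-SiO2+MT were 17.3% ± 2.86, 10.1% ± 1.72 and 46.8% ± 2.68 of the control mean (SD, n = 3 libraries each).

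The second ferritin-2 gene, Glyma.03G050100, had the same order of groups at a lower level. Control libraries held 63.8, 64.0 and 67.6 FPKM and nano-SiO2 libraries 11.0, 8.85 and 14.9 FPKM. MT libraries held 8.21, 7.54 and 7.99 FPKM and nano-SiO2+MT libraries 30.6, 29.1 and 36.4 FPKM. The lowest nano-SiO2 library (8.85 FPKM) was close to the highest MT library (8.21 FPKM), so these 2 groups were separate by a narrow margin in this gene.

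Both ferritin-1 genes followed. Glyma.18G205800 stood at 79.7, 58.5 and 75.2 FPKM in control leaves, 13.9, 16.1 and 14.4 FPKM after nano-SiO2, 6.49, 8.68 and 10.8 FPKM after MT, and 33.9, 40.6 and 30.7 FPKM after nano-SiO2+MT. Glyma.07G155200, the lowest of the 4 copies in control leaves, stood at 49.7, 44.1 and 45.1 FPKM there, 10.5, 10.4 and 13.1 FPKM after nano-SiO2, 4.45, 7.03 and 5.81 FPKM after MT, and 22.2, 25.6 and 30.3 FPKM after nano-SiO2+MT. In both genes, as in the ferritin-2 pair, no library of one group reached into the range of another, and the order of the groups was control, nano-SiO2+MT, nano-SiO2, MT. The share of all genes tested whose groups are separate in this way is not given here, so the separation is only a description.

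**Figure D1:**
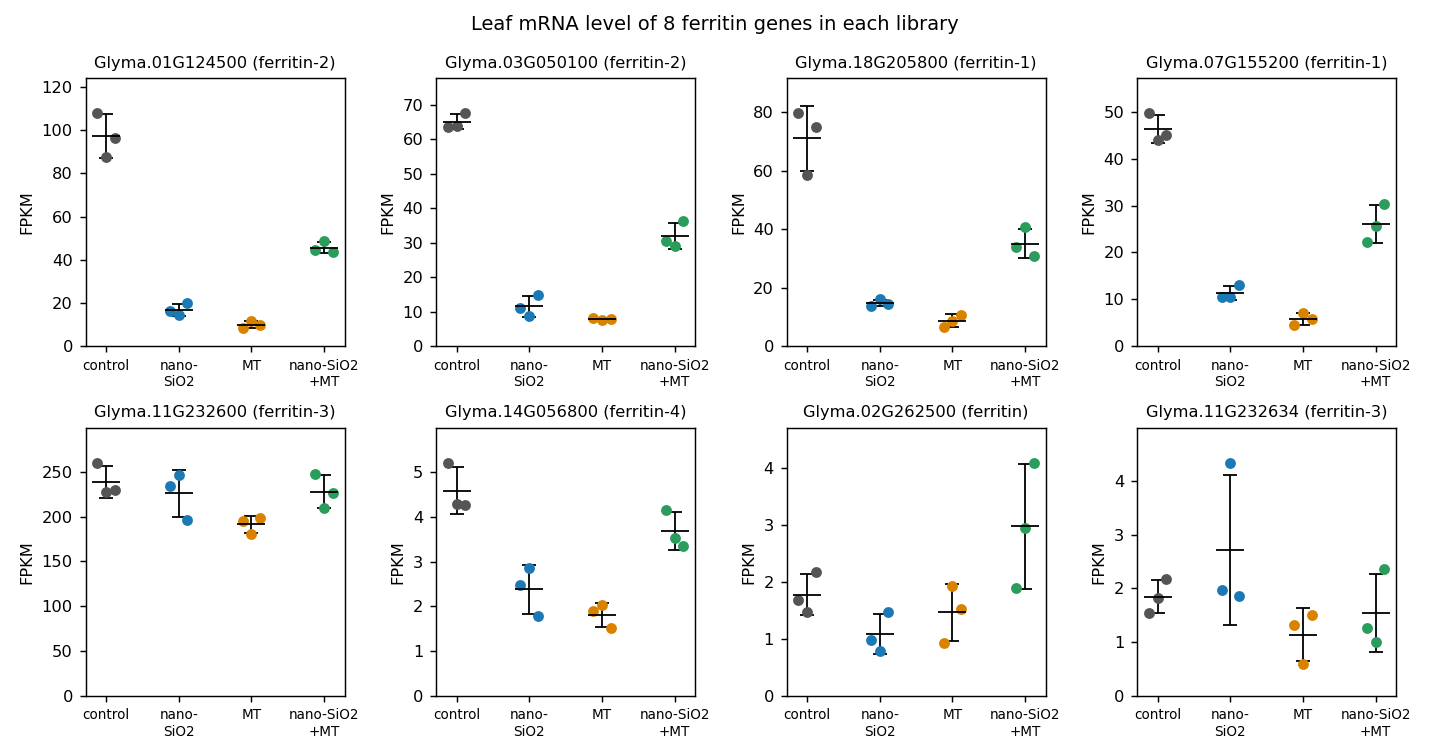
FPKM of each of the 8 ferritin genes in each library, with 1 panel per gene and its own axis from 0. Points are libraries, the horizontal line is the group mean and bars are ± 1 SD (n = 3). In the 4 ferritin-1 and ferritin-2 panels the groups are separate, whereas ferritin-3 Glyma.11G232600 lies between 181 and 260 FPKM in all 12 libraries.

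The remaining 3 genes were expressed at a few FPKM, near the filter of 1 FPKM. Ferritin-4 Glyma.14G056800 stood at 5.21, 4.30 and 4.28 FPKM in control leaves, 2.49, 2.86 and 1.80 FPKM after nano-SiO2, 1.89, 2.02 and 1.51 FPKM after MT, and 4.17, 3.53 and 3.36 FPKM after nano-SiO2+MT. It kept the order of the ferritin-1 and ferritin-2 genes with smaller steps, and its nano-SiO2 and MT libraries overlapped. Glyma.02G262500 ranged from 0.782 to 4.08 FPKM and ferritin-3 Glyma.11G232634 from 0.585 to 4.33 FPKM, and in both genes every pair of neighbouring groups overlapped. The highest value of Glyma.02G262500 was in a nano-SiO2+MT library and that of Glyma.11G232634 in a nano-SiO2 library.

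Fitted differences from control give the same picture as a description. On the log2(FPKM + 1) scale, the 4 ferritin-1 and ferritin-2 genes differed from control by -1.94 (SE 0.16, Glyma.07G155200) to -2.47 (SE 0.15, Glyma.01G124500) after nano-SiO2. After MT they differed by -2.82 (SE 0.16, Glyma.07G155200) to -3.19 (SE 0.15, Glyma.01G124500), and after nano-SiO2+MT by -0.82 (SE 0.16, Glyma.07G155200) to -1.07 (SE 0.15, Glyma.01G124500). Ferritin-4 Glyma.14G056800 differed by -0.74, -0.99 and -0.26 in these 3 comparisons (SE 0.14 each). The abundant Glyma.11G232600 differed by -0.084, -0.32 and -0.068, with 95% intervals from -0.36 to 0.19 after nano-SiO2, from -0.59 to -0.04 after MT and from -0.34 to 0.20 after nano-SiO2+MT. The 3 comparisons share the control libraries.

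The combined spray was then set against each single spray. Against nano-SiO2 alone, 4 of the 8 ferritin genes were called higher after nano-SiO2+MT at an adjusted p below 0.05 (limma, Benjamini-Hochberg over all genes tested), where 0.308% of all genes tested were called higher. They were the 4 ferritin-1 and ferritin-2 genes. Ferritin-2 Glyma.01G124500 rose by 1.39 on the log2 scale (SE 0.15, adjusted p = 0.000856) and ferritin-2 Glyma.03G050100 by 1.42 (SE 0.16, adjusted p = 0.00114). Ferritin-1 Glyma.18G205800 rose by 1.19 (SE 0.17, adjusted p = 0.00661) and ferritin-1 Glyma.07G155200 by 1.13 (SE 0.16, adjusted p = 0.0053). As ratios of mean FPKM these were 2.70, 2.77, 2.37 and 2.29 times the nano-SiO2 level. The abundant ferritin-3 Glyma.11G232600 differed by 0.016, with a 95% interval from -0.26 to 0.29 (adjusted p = 0.951), an interval that does not reach the size seen in any of the 4. Ferritin-4 differed by 0.48 (adjusted p = 0.116), Glyma.02G262500 by 0.91 (adjusted p = 0.0541) and Glyma.11G232634 by -0.53 (adjusted p = 0.298), none past the threshold. The median over the 8 ferritin genes was 1.02 and over all genes tested -0.15.

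Against MT alone the separation was larger. The same 4 genes were called higher after nano-SiO2+MT and the other 4 were not, where 0.0672% of all genes tested, 19 genes, were called higher. Glyma.01G124500 rose by 2.11 on the log2 scale (SE 0.15, adjusted p = 1.82e-05), Glyma.07G155200 by 2.01 (SE 0.16, adjusted p = 4.28e-05), Glyma.18G205800 by 1.92 (SE 0.17, adjusted p = 0.000136) and Glyma.03G050100 by 1.88 (SE 0.16, adjusted p = 5.66e-05). Ferritin genes thus made up 4 of the 19 genes called higher in this comparison. The abundant Glyma.11G232600 differed by 0.25, with a 95% interval from -0.02 to 0.52 (adjusted p = 1.00), below the interval of each of the 4. Ferritin-4 Glyma.14G056800 differed by 0.74 (SE 0.14, adjusted p = 0.0641) and Glyma.02G262500 by 0.67 (adjusted p = 0.600). With the replicate number as a block, ferritin-4 had an adjusted p of 0.0361 in the limma fit of all 4 groups and of 0.0615 in the fit of these groups alone, and the 4 other genes were called in both. In both comparisons the 4 ferritin-1 and ferritin-2 genes passed the threshold under all 21 alternatives tried, among them the fit without control library 1 and nano-SiO2 library 2.

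The single sprays differed from each other by less. After MT, 3 of the 8 ferritin genes were called lower than after nano-SiO2, where 2.41% of all genes tested were called lower. Ferritin-1 Glyma.07G155200 fell by 0.88 (SE 0.16, adjusted p = 0.0126), ferritin-1 Glyma.18G205800 by 0.73 (SE 0.17, adjusted p = 0.0419) and ferritin-2 Glyma.01G124500 by 0.72 (SE 0.15, adjusted p = 0.0242). Ferritin-2 Glyma.03G050100 differed by -0.47 (adjusted p = 0.118) and the abundant Glyma.11G232600 by -0.23, with a 95% interval from -0.50 to 0.04 (adjusted p = 0.307). Of 21 alternatives, 20 kept the call of Glyma.07G155200, 16 that of Glyma.01G124500 and 8 that of Glyma.18G205800, with highest adjusted p of 0.0671, 0.124 and 0.171. This order of the single sprays is the least settled of the ferritin results: without library 1 of MT none of the 8 genes was called by limma, and without library 3 of nano-SiO2, after median-ratio or quantile scaling of the libraries, or with only these groups in the fit, 1 was. In the same comparison 14 of 20 tested secondary wall and xylem marker genes were called lower. All 46 genes of that list, tested or not, summed to 146 to 325 FPKM after nano-SiO2 and 49.0 to 66.4 FPKM after MT. The part of that tissue difference in the ferritin result was not tested.

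**Figure D2:**
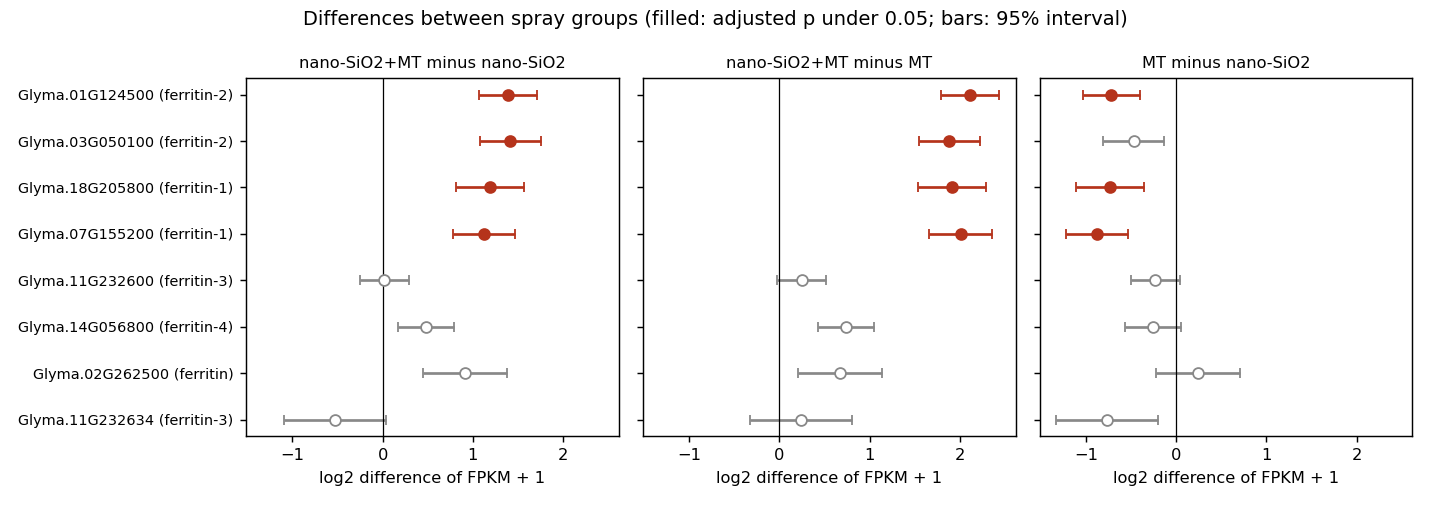
Differences between sprayed groups for each ferritin gene, on the log2(FPKM + 1) scale, in 3 panels, none of which sets a spray against control. Circles are fitted differences and bars are 95% intervals from the limma fit over 12 libraries, controls included. Filled red circles have an adjusted p below 0.05. The 4 ferritin-1 and ferritin-2 genes lie between 1.13 and 2.11 in the comparisons with nano-SiO2+MT, while ferritin-3 Glyma.11G232600 lies at 0.016 and 0.25.

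The median over all genes tested was -0.14 in MT minus nano-SiO2 and -0.15 in nano-SiO2+MT minus nano-SiO2, and median-ratio scaling brought both to within 0.01 of 0. Relative to that median, the ferritin genes called in the first of these comparisons were 0.74 (Glyma.07G155200), 0.59 (Glyma.18G205800) and 0.58 (Glyma.01G124500) lower after MT. In the second, the 4 genes were between 1.28 (Glyma.07G155200) and 1.56 (Glyma.03G050100) higher after nano-SiO2+MT, and Glyma.11G232600 was 0.16 higher. The share of all calls that were higher moved with the scaling, from 23.7% to 53.3% in MT minus nano-SiO2 and from 20.1% to 44.9% in nano-SiO2+MT minus nano-SiO2 after median-ratio scaling.

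The make-up of the leaf ferritin mRNA pool, taken as the sum of the 8 levels, differed between the groups. The summed level of the 8 genes was 527 ± 40.2 FPKM in control leaves, 287 ± 20.6 FPKM after nano-SiO2, 228 ± 8.98 FPKM after MT and 375 ± 12.4 FPKM after nano-SiO2+MT (SD, n = 3 each). The 4 ferritin-1 and ferritin-2 genes supplied 53.1% ± 1.23 of it in control leaves, 19.2% ± 3.87 after nano-SiO2, 14.1% ± 1.90 after MT and 37.1% ± 2.93 after nano-SiO2+MT. Ferritin-3 Glyma.11G232600 supplied 45.4%, 78.6%, 84.0% and 60.8%, and the 3 low genes together between 1.48% and 2.62% in any library. In control leaves the abundant copy and the 4 others were thus near parity, at a ratio of 0.855, while after MT the abundant copy stood at 6.04 times their sum.

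The share of the 4 genes did not overlap between any pair of sprayed groups. It was 33.97% to 39.8% in the nano-SiO2+MT libraries, 16.4% to 23.6% in the nano-SiO2 libraries and 12.1% to 15.8% in the MT libraries. The difference in mean share was 17.8 percentage points between nano-SiO2+MT and nano-SiO2, 22.9 points between nano-SiO2+MT and MT, and -5.10 points for MT minus nano-SiO2. Each of the 3 comparisons gave p = 0.1 in a two-sided exact permutation test, which is the smallest p that 3 libraries against 3 allow, and p = 0.1 after adjustment over the 3, so none could pass 0.05. The log2 ratio of the summed 4 genes to Glyma.11G232600 also had no overlap, so its p was the same in each comparison. It is built from nearly the same levels as the share and adds no separate support.

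**Figure D3:**
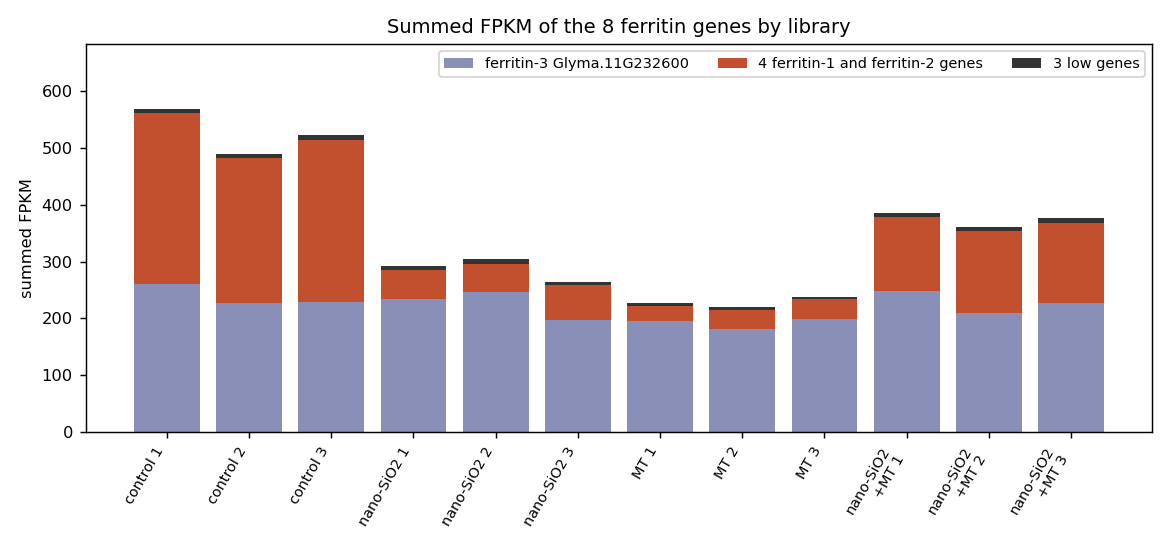
Summed FPKM of the 8 ferritin genes in each of the 12 libraries, as stacked bars from 0. The lower part is ferritin-3 Glyma.11G232600, the middle part the 4 ferritin-1 and ferritin-2 genes and the top part the 3 low genes. The lower part ranges from 181 to 260 FPKM, with every MT bar below every control bar in that part. The middle part ranges from 27.4 FPKM in MT library 1 to 301 FPKM in control library 1.

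Within the 4 ferritin-1 and ferritin-2 genes, the proportions between copies varied less than the levels. Ferritin-2 Glyma.01G124500 was 1.49 ± 0.172 times Glyma.03G050100 in control leaves, 1.48 ± 0.154 times after nano-SiO2, 1.25 ± 0.268 times after MT and 1.44 ± 0.232 times after nano-SiO2+MT (SD, n = 3 each). Ferritin-1 Glyma.18G205800 was 1.53 ± 0.179, 1.32 ± 0.221, 1.52 ± 0.316 and 1.37 ± 0.313 times Glyma.07G155200 in the same groups. These ratios differed between groups by about their spread between libraries. The part of the summed 4 genes taken by ferritin-1 Glyma.07G155200 was less even, at 16.6% ± 0.722 in control and 20.8% ± 0.335 after nano-SiO2 with no overlap, 17.8% ± 2.11 after MT and 18.7% ± 2.39 after nano-SiO2+MT. The part taken by ferritin-2 Glyma.01G124500 was 34.7% ± 1.00 in control, 30.8% ± 1.45 after nano-SiO2, 30.6% ± 2.47 after MT and 32.9% ± 1.60 after nano-SiO2+MT. No sprayed library reached the control range of that part, although the gap was narrow, from 33.82% in a nano-SiO2+MT library to 33.86% in a control library. The genes of a pair carry the same description, and the sources used here do not say how reads that match several copies were divided, so the split between them is uncertain.

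The tie between the copies lay mostly between groups. Over the 12 libraries, Pearson's r on the log2 scale was 0.966 to 0.991 for the 6 pairs among the 4 genes, a description that reflects the 4 separate groups. After each group mean was removed, r ranged from -0.31 to 0.76 with a median of 0.40. Against ferritin-3 Glyma.11G232600 it was 0.57 to 0.67 over the libraries and -0.56 to 0.12 within groups. Ferritin-4 Glyma.14G056800 was close to the 4 genes over the libraries, with an r of 0.894 to 0.929, but had -0.77 to 0.02 within groups. Libraries in these correlations share their scaling and depth.

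The deposited functional annotation also distinguishes the copies, although it is an assignment and not a measurement of these leaves. All 8 genes carry 15 terms in common, among them ferroxidase activity, ferric iron binding, chloroplast and response to iron ion. The 4 ferritin-1 and ferritin-2 genes, and none of the other 4, carry 8 further terms, which are thylakoid, chloroplast thylakoid membrane, cytoplasm and responses to bacterium, cold, cytokinin, hydrogen peroxide and zinc ion. The other 4 genes alone carry 1 term, chloroplast envelope.

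The genes whose level over the 12 libraries most resembled that of ferritin-2 Glyma.01G124500 were sought among 14122 other genes with a mean of at least 5 FPKM. Pearson's r on the log2(FPKM + 1) scale ranked them, as a description of libraries that share groups and scaling. The highest values were 0.90 for the VAN3-binding protein gene Glyma.10G244600, 0.90 for Glyma.20G217400, described as the metal-nicotianamine transporter YSL1, and 0.90 for Glyma.05G055000, the copper chaperone that loads copper into Cu/Zn superoxide dismutase. Next came Glyma.16G168200, a vacuolar iron transporter homolog, at 0.89, Glyma.09G179900, of unknown function, at 0.89, and Glyma.04G089800, a glutamyl-tRNA reductase of the tetrapyrrole pathway, at 0.88. The hypothetical gene Glyma.10G006850 reached 0.88 and the chalcone synthase gene Glyma.06G118550, of flavonoid synthesis, 0.86. None of these 8 was as close to Glyma.01G124500 as the other 3 ferritin-1 and ferritin-2 genes were, or as ferritin-4 Glyma.14G056800 was (r of 0.925).

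The copper chaperone Glyma.05G055000 had the ferritin order of groups, with 57.7 ± 3.21 FPKM in control leaves, 32.3 ± 0.83 after nano-SiO2, 14.9 ± 3.55 after MT and 42.8 ± 3.71 after nano-SiO2+MT (SD, n = 3). The YSL1 gene Glyma.20G217400 stood at 30.2 ± 3.16, 21.5 ± 0.495, 16.6 ± 2.19 and 24.1 ± 2.22 FPKM in the same groups. Both had narrower ranges than the 4 ferritin-1 and ferritin-2 genes.

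The opposite pattern was strongest in an iron enzyme. Glyma.20G196900, a chloroplast iron superoxide dismutase that removes superoxide, had an r of -0.98 with ferritin-2 Glyma.01G124500. Its level was 0.436 ± 0.121 FPKM in control leaves, 23.7 ± 2.78 after nano-SiO2, 33.2 ± 7.13 after MT and 4.16 ± 1.44 after nano-SiO2+MT. It was low where the 4 ferritin genes were high in every one of the 4 groups. The gene was chosen for this pattern, so its levels are given with no test. The next lowest r values were -0.96 for Glyma.13G118300, a cytosolic diacylglycerol acyltransferase, -0.95 for Glyma.08G195100, the acid phosphatase ACP1, and -0.94 for Glyma.10G000300, a benzyl alcohol benzoyltransferase.

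**Figure D4:**
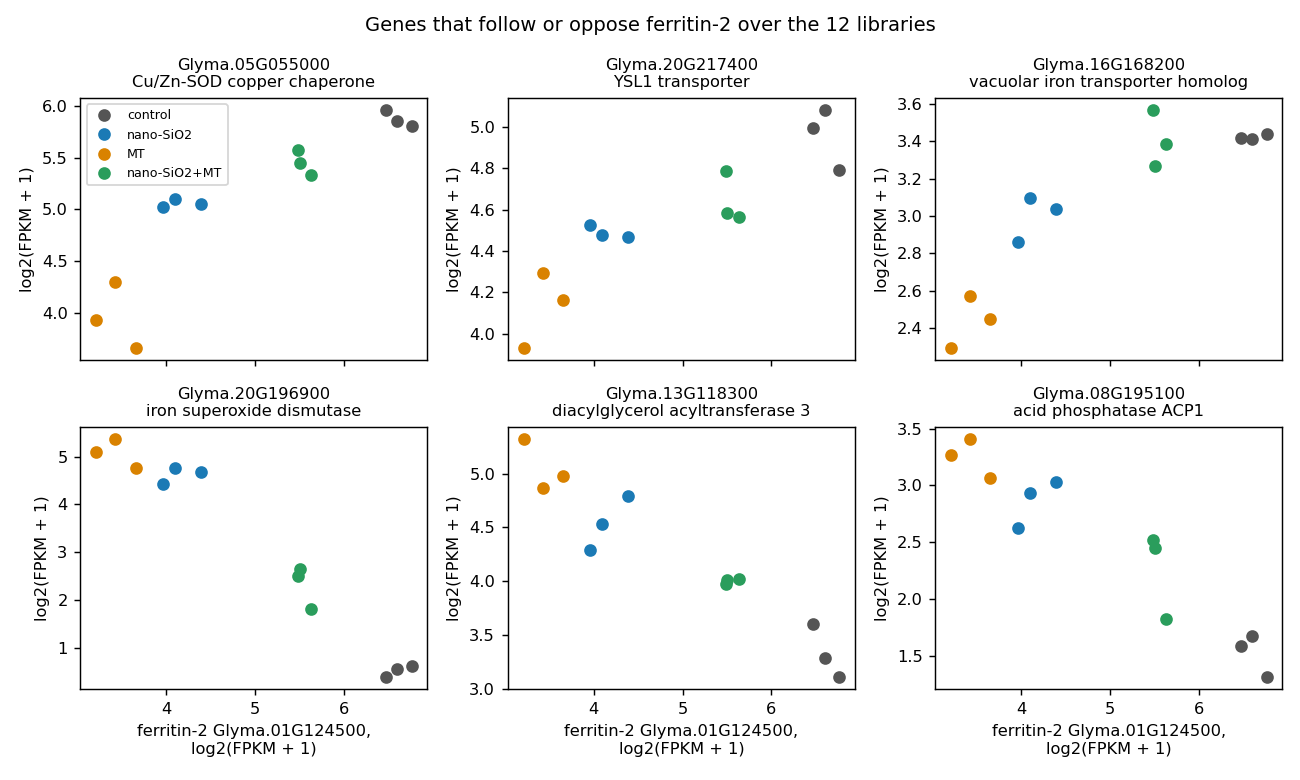
Level of ferritin-2 Glyma.01G124500 against 6 other genes in the 12 libraries, both axes on the log2(FPKM + 1) scale. The upper panels show 3 genes that followed it (r of 0.90, 0.90 and 0.89) and the lower panels the 3 with the most negative r (-0.98, -0.96 and -0.95). Points are libraries coloured by group, and in the panel of the iron superoxide dismutase the groups run in reverse order.

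For the abundant ferritin-3 Glyma.11G232600 the closest genes were less close. The hypothetical gene Glyma.16G116300 had an r of 0.83, the superoxide dismutase gene Glyma.03G242900 of 0.83, the second YSL1 gene Glyma.10G172900 of 0.81 and the geraniol hydroxylase gene Glyma.11G108300 of 0.80.

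Other genes of iron handling were called in both directions or not at all. Among 33 tested iron uptake and transport genes, which include Nramp and YSL transporters and ferric reductases, 2 were called higher after nano-SiO2 against control, 3 were called higher and 2 lower after MT, and 1 was called lower after nano-SiO2+MT. Of all genes tested, 0.389%, 1.66% and 0.729% were called higher in these 3 comparisons, and 1.69% after MT and 0.637% after nano-SiO2+MT were called lower. The median log2 differences of the transport genes were 0.25, 0.031 and -0.0015, beside 0.098, -0.049 and -0.054 over all genes tested. The transporter gene Nramp6 (Glyma.15G003500) was at 3.31 ± 0.365 FPKM in control leaves, 10.1 ± 2.43 after nano-SiO2, 9.95 ± 1.33 after MT and 6.29 ± 2.22 after nano-SiO2+MT. It was called higher after nano-SiO2 (log2 difference 1.35, limma adjusted p = 0.0116, lost in 4 of 21 alternatives) and after MT (limma adjusted p = 0.0035). Its highest group means were thus in the single sprays, where the 4 ferritin genes had their lowest. Between the sprays, 2 of the 33 transport genes were called lower after nano-SiO2+MT than after nano-SiO2 (1.22% of all genes tested were), and 1 was called higher and 2 lower than after MT (0.0672% and 0.226%). After MT, 1 was called higher and 1 lower than after nano-SiO2 (0.75% and 2.41%). The transporter gene Nramp2a (Glyma.05G101700) was among those called lower in both, by -0.83 (limma adjusted p = 0.00407) and -1.25 (limma adjusted p = 8.21e-05), in the direction opposite to the 4 ferritin genes. Its levels were 6.46 ± 0.332 FPKM in control leaves, 8.04 ± 0.0702 after nano-SiO2, 11.2 ± 1.23 after MT and 4.09 ± 0.246 after nano-SiO2+MT.

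Nicotianamine synthase, which makes the chelator that carries iron and other metals within the plant, had 3 tested genes. Of these, 2 were called higher after MT and 1 after nano-SiO2+MT against control, where 1.66% and 0.729% of all genes tested were. Glyma.03G231200 was at 4.19 ± 0.112 FPKM in control leaves and at 8.91 ± 2.16, 14.4 ± 3.66 and 14.5 ± 3.93 FPKM after nano-SiO2, MT and nano-SiO2+MT. After the combined spray this gene stood at its MT level, while the ferritin-1 and ferritin-2 genes stood above theirs. Glyma.19G228400 was at 10.2 ± 0.512 FPKM in control leaves and at 15.9 ± 4.62, 26.8 ± 6.38 and 14.3 ± 3.66 FPKM in the same 3 sprays. Of 6 tested vacuolar iron transporter genes, 1 was called in any comparison, Glyma.16G168200. It fell by 0.99 after MT against control (limma adjusted p = 0.000636) and by 0.56 after MT against nano-SiO2 (limma adjusted p = 0.0286, lost in 8 of 21 alternatives). It was 0.97 higher after nano-SiO2+MT than after MT (limma adjusted p = 0.00192). Of all genes tested, 1.69%, 2.41% and 0.0672% were called in these directions. This gene was also picked above for its likeness to Glyma.01G124500, so its calls add no separate support.

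Several iron gene groups showed no call beside the ferritin differences. In limma, none of 15 tested iron regulators (such as BRUTUS-type and bHLH factors), 25 iron-sulfur assembly genes, 9 ferrochelatase and haem oxygenase genes or 13 ascorbate peroxidase and catalase genes passed an adjusted p of 0.05 in any of the 6 pairwise comparisons. Of all genes tested, between 0.294% (nano-SiO2+MT minus MT) and 3.35% (MT minus control) were called in a comparison. At an unadjusted p below 0.05 these groups had 8 of 90, 8 of 150, 8 of 54 and 6 of 78 gene and comparison pairs. Here and below, the share of all genes at that unadjusted p is not given, so such counts cannot be read as high or low. Of 4 iron superoxide dismutase genes, the 3 other than Glyma.20G196900 had no call. Of 5 Cu/Zn superoxide dismutase genes, 1 was called lower after MT against control, 2 lower after MT against nano-SiO2 and 1 higher after nano-SiO2+MT against MT, where 1.69%, 2.41% and 0.0672% of all genes tested were.

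Marker genes of leaf tissues, leaf age and the circadian clock are set beside the ferritin results. Mesophyll markers, which mark the labelled tissue, were high in every library. Summed levels of 31 leaf mesophyll genes (the small subunit of RuBisCO and chlorophyll-binding proteins) were 46498 to 74763 FPKM in control, 27587 to 46184 after nano-SiO2, 43838 to 62689 after MT and 48570 to 66878 after nano-SiO2+MT. Of the 28 tested, 1 was called lower after nano-SiO2 (0.103% of all genes tested were) and 2 after MT (1.69%) against control. Their median differences from control were -0.32 after nano-SiO2, 0.025 after MT and 0.077 after nano-SiO2+MT. The medians over all genes tested were 0.098, -0.049 and -0.054. Between nano-SiO2+MT and nano-SiO2 none was called in limma, 13 of 28 had an unadjusted p below 0.05, and the median difference was 0.35, beside -0.15 over all genes tested. The chlorophyll-binding protein gene Glyma.16G165200, named for its large difference, had the ferritin order in its group means, unlike the medians of its list. It stood at 93.6 ± 17.8 FPKM in control, 40.6 ± 4.87 after nano-SiO2, 36.3 ± 2.87 after MT and 49.7 ± 18.4 after nano-SiO2+MT, but the sprayed groups overlapped. Its call after MT held in all 21 alternatives and its call after nano-SiO2 was lost in 17.

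The 20 genes of leaf senescence summed to 1055 to 1106 FPKM in control, 1118 to 1385 after nano-SiO2, 1388 to 1561 after MT and 1233 to 1474 after nano-SiO2+MT, with the lowest sums in control, where the 4 ferritin genes were highest. Of the 19 of these that were tested, 1, 4 and 1 were called higher after nano-SiO2, MT and nano-SiO2+MT against control (0.389%, 1.66% and 0.729% of all genes tested). Between the sprays, 1 was called lower in MT minus nano-SiO2, 2 in nano-SiO2+MT minus nano-SiO2 and 1 in nano-SiO2+MT minus MT (2.41%, 1.22% and 0.226%). The senescence-associated nodulin gene Glyma.07G209100 stood at 10.7 ± 0.425 FPKM in control, 19.5 ± 3.30 after nano-SiO2, 18.1 ± 3.20 after MT and 6.81 ± 1.2 after nano-SiO2+MT. It was called lower after the combined spray than after nano-SiO2 (limma adjusted p = 0.00178) and than after MT (limma adjusted p = 0.00204). In the same groups, means of Glyma.11G082300, described as a senescence-associated protein, were 317, 407, 602 and 573 FPKM. Glyma.14G215400 of the same list had means of 85.9, 108, 124 and 120 FPKM. Both stayed near their MT mean after nano-SiO2+MT.

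The 46 xylem and secondary wall genes summed to 110 to 182 FPKM in control and 57.9 to 162 FPKM after nano-SiO2+MT. Of the 20 tested, 5 were called lower after MT (1.69% of all genes tested) and 1 after nano-SiO2+MT (0.637%) against control, with a median of -0.99 after MT. Against nano-SiO2, 14 were called lower after MT (2.41%) and 3 after nano-SiO2+MT (1.22%). Of 17 evening clock genes, 2 were called lower after MT and 1 after nano-SiO2+MT against control (1.69% and 0.637%), and 2 and 1 against nano-SiO2 (2.41% and 1.22%). In nano-SiO2+MT minus nano-SiO2, 9 of the 17 had an unadjusted p below 0.05. Of 9 morning clock genes 1 was called lower after MT against control (1.69%). The labels give no hour of sampling. The 6 seed storage genes summed to at most 0.254 FPKM in any library, and the word leghemoglobin matched only 2 leghemoglobin reductase genes, which are no nodule markers (99.9 to 202 FPKM in sum, 0 calls and 0 at an unadjusted p below 0.05 in limma). The part of mesophyll, senescence, xylem and clock differences in the ferritin results was not tested.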

How the data were processed

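RNA from leaves was enriched for mRNA with oligo(dT), per the labels' protocols, and the authors deposited 1 table of FPKM per gene for 12 libraries with descriptions. The deposited table also holds p-values and q-values of an unnamed comparison, which were not used. DESeq2 1.34.0 and R 4.1.2 are named in the submitters' processing notes. The aligner, quantifier and strand setting, like the treatment of reads shared between copies, were not given in the sources used here.

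Values were used as log2(FPKM + 1). The 28260 of 46446 genes that reached 1 FPKM in 3 or more libraries were fitted in limma 3.58.1 (R 4.3.3) with 4 group means over all 12 libraries and moderated variances (trend, robust). P-values were two-sided and adjusted by Benjamini-Hochberg over all genes tested, and genes were called below 0.05. Differences are on the log2(FPKM + 1) scale, which understates changes of low genes. Shares were tested by exact permutation (scipy 1.17.1). The pipeline was tested on simulated data. The ferritin genes, gene lists and tests were chosen with earlier results of these data known. Besides the ferritins, the rule named up to 3 called, non-overlapping genes per list, or its most abundant gene, and the genes most and least correlated with a ferritin. All of the correlated genes are printed. Of the list genes only some are, among them iron genes and markers of mesophyll and senescence.

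Alternatives were a pseudocount of 0.1, no filter, a mean of at least 5 FPKM, median-ratio and quantile scaling, a fit of only the groups compared, plain moderation, a replicate term, and leaving out libraries. The labels number the libraries without saying what a number marks. Same-numbered MT and nano-SiO2+MT libraries correlated in their deviations from the group means (r of 0.141, 0.384 and 0.355), so a block on the number was tried for these groups. Differently numbered libraries of other groups reached an r of 0.528, so pairing is not shown. A fit of these groups alone with that block was added after seeing the data. None of the 8 genes matched the RefSeq gene table of 59048 genes given for this work, so no sequences are shown.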

Additional observations from a re-analysis of the deposited data

Results flagged for a closer look

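In 5 ferritin genes the difference made by melatonin had opposite signs without and with silica: every MT library was below every control library, and every nano-SiO2+MT library was above every nano-SiO2 library. Of all 28260 genes tested, 58 (0.205%) had this pattern and 236 (0.835%) its mirror image. The difference between these steps (nano-SiO2+MT minus nano-SiO2, less MT minus control, on the log2 scale) was 4.58 for Glyma.01G124500, 4.31 for Glyma.03G050100, 4.1 for Glyma.18G205800, 3.95 for Glyma.07G155200 and 1.47 for ferritin-4 Glyma.14G056800. The difference was not tested, because the genes were chosen on comparisons that enter it.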

How the results depend on the processing

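Direction and call of the 4 ferritin-1 and ferritin-2 genes held in both comparisons of nano-SiO2+MT with a single spray under all 21 alternatives, with a highest adjusted p of 0.0379 against nano-SiO2 and 0.00467 against MT. The count of ferritin genes called was 4 to 5 in each. In MT minus nano-SiO2 the count was 3, but 1 under median-ratio scaling, 1 under quantile normalization and 1 with only the groups compared, and 0 to 3 when each library was left out in turn. The difference of Glyma.11G232600 between nano-SiO2+MT and nano-SiO2 changed sign to -0.00741 under quantile normalization, and ran from -0.0799 to 0.0829 without single libraries. The cause was not tested. The differences in share kept their direction under the log2 ratio and without single libraries.

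With the replicate number as a block, 3 ferritin genes were called in MT minus nano-SiO2, 5 in nano-SiO2+MT minus nano-SiO2 (adding Glyma.02G262500) and 5 in nano-SiO2+MT minus MT (adding Glyma.14G056800, adjusted p = 0.0361). A block fit of MT and nano-SiO2+MT alone, added after seeing the data, called 4. In the 5 other pairs of groups not every same-numbered pair correlated above 0.1 (over all pairs of groups, r from -0.34 to 0.53, and 9 of 18 above 0.1). Of the differently numbered pairs, 12 of 36 were above 0.1, so pairing by number is not shown.

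Counts over all genes were less steady. Without single libraries they ran from 103 to 535 in nano-SiO2+MT minus nano-SiO2 (432 as reported), from 34 to 98 in nano-SiO2+MT minus MT (83), from 227 to 977 in MT minus nano-SiO2 (893), from 43 to 173 in nano-SiO2 minus control (139), from 350 to 1098 in MT minus control (948) and from 60 to 470 in nano-SiO2+MT minus control (386). A mean of at least 5 FPKM gave 273, 40, 446, 69 and 603 in the first 5 of these, and fitting only the groups compared gave 124, 54 and 381 in the first 3. No filter gave 229 in nano-SiO2+MT minus nano-SiO2, 521 in MT minus nano-SiO2 and 239 in nano-SiO2+MT minus control. The block gave 789 and 1578 in nano-SiO2+MT and MT against nano-SiO2. Median-ratio scaling moved the share of calls that were higher in nano-SiO2+MT minus control from 53.4% to 65.8%. FPKM keep no read depth, so the counting error of the 3 low genes is unknown.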
